A study of Mus musculus with 30 samples.

Results

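The galectin genes Lgals1, Lgals3, Lgals4, Lgals8 and Lgals9, were followed through quadriceps muscle and spinal cord of mice without acid alpha-glucosidase (GAA), the model of Pompe disease. They are 5 of the 17420 genes in the deposited table, taken by gene name and read in all 30 libraries. The 5 were selected on their measured values, with the knockout and treatment differences of these libraries already known. Their values are therefore given as a description, without a p-value. All 5 passed the filter on low values in both tissues.

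Galectins are small lectins that bind beta-galactoside sugars. They sit mainly in the cytosol and reach the sugar coat of lysosomal membrane proteins when the lysosomal membrane breaks, so that galectin spots on lysosomes are a standard sign of membrane damage. Galectin-3, the Lgals3 product, helps recruit the ESCRT repair machinery and the ubiquitin ligase TRIM16. Galectin-8 restrains the nutrient kinase mTORC1 and guides autophagy receptors, while galectin-9 acts on the energy kinase AMPK through USP9X and TAK1. Galectin-1 is an abundant small dimer that is also secreted and is known from muscle regeneration. Galectin-4 is best known from intestinal epithelium. GAA breaks down glycogen inside lysosomes, and glycogen fills the lysosomes of muscle and neurons without it.

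The 15 male mice were aged 4 months, and each gave 1 quadriceps and 1 whole spinal cord library. Treated Gaa KO mice of the B6;129;DBA2/J (Ltbp4D36/D36) background, here called the mixed background, had received as newborns, by vein, AAV9-sp7-8-hGAAco. This vector encodes secreted human GAA under a liver-muscle promoter (LiMP). Untreated Gaa KO and Gaa WT mice of the same mixed background formed 2 further groups, and Gaa KO and Gaa WT mice of the B6;129 background formed the last 2, with 3 mice in each of the 5 groups. All mixed-background mice, WT included, carry the Ltbp4D36/D36 label, and the B6;129 mice do not. The 2 backgrounds also sit in separate column series of the table, and a difference between backgrounds cannot be told apart from one between these series.

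Levels are the deposited signal, which is (reads + 0.5) divided by a scaled library size (a CPM scale), and errors are SD over 3 mice. Differences are on the scale of log2(signal + 0.5) with their standard error from 1 limma fit per tissue. Folds are these differences turned back from log2. The added 0.5 makes them smaller than ratios of the signals where a signal is low, as for Lgals3 in WT libraries. Total reads were 16900000 to 37100000 per quadriceps library and 19200000 to 34200000 per cord library. Gaa itself had a signal of 15.8 ± 0.426 in B6;129 KO quadriceps and 275 ± 29.0 in B6;129 WT quadriceps (log2 difference -4.07 ± 0.15, limma adjusted p = 1.63e-09). It was also lower in the KO libraries of the mixed background and of cord. In treated KO quadriceps Gaa was 18.0 ± 0.913, and whether transgene reads were counted under the mouse gene was not checked. The summed signal of 8 mature fibre genes was at least 136000 in quadriceps libraries and at most 1540 in cord libraries. For 8 neuron genes it was at most 9.89 in quadriceps and at least 4120 in cord.

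The 5 genes lie on 5 chromosomes of GRCm38. Lgals1 is at chr15:78926725-78930465 on the plus strand, Lgals3 at chr14:47367751-47386160 on the plus strand, and Lgals4 at chr7:28833854-28841708 on the plus strand. Lgals8 is at chr13:12439415-12464944 and Lgals9 at chr11:78962974-78984946, both on the minus strand. Lgals8 shares 155 exon bases, 4.2% of its exons, with Heatr1 on the other strand, and strand use in counting is not stated. The annotation also holds the pseudogenes Lgals1-ps1 and Lgals1-ps2, and some mouse strains carry Lgals6, a near copy of Lgals4, so reads of Lgals1 and Lgals4 may be split or shared with these copies.

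RefSeq promoter windows of GRCm38.p6, from 250 bases before the start to 50 bases from it, were held for 4 of the 5 genes. Windows of Lgals3 and Lgals9 are shown because Lgals3 carried the widest range of levels here and Lgals9 is a textbook interferon-inducible gene. Capitals mark matches to the Sp1 box GGGCGG in Lgals3 and to the interferon response element, GAAA repeated after any 2 bases, in Lgals9, read on either strand.
Lgals3, chr14:47373610-47373909, plus strand: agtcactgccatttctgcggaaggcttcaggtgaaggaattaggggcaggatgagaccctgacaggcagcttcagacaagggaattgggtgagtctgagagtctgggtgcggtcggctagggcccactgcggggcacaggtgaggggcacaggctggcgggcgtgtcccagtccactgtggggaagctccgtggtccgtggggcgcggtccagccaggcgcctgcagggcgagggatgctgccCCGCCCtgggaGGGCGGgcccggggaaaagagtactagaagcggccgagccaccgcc
Lgals9, chr11:78984875-78985174, minus strand: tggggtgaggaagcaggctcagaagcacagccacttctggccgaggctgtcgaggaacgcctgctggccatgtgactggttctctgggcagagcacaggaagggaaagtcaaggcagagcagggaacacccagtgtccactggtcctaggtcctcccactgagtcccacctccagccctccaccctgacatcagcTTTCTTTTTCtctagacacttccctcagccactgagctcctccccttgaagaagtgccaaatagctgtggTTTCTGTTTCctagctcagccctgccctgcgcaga
The Lgals3 window was 67.0% G or C and held 2 Sp1 boxes, beginning at positions -7 and 5 with the start as position 1. This box occurred in 35.7% of 32851 promoter windows. The RefSeq start of Lgals3 used here lies inside the annotated gene span. The Lgals9 window was 58.0% G or C and held 2 interferon elements, beginning at positions -55 and 16, a motif found in 3.44% of windows. None of the 4 windows held CACGTG, the core of the element bound by the lysosomal regulator TFEB, which was in 7.15% of windows. The AP-1 motif TGANTCA, in 7.81% of windows, and the PU.1 motif GAGGAAGT, in 3.2% of windows, were also not in the 4. The Lgals4 window held 1 Sp1 box and the Lgals8 window no match to any of the 5 motifs. A match describes letters, not a bound site.

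In quadriceps, Lgals3 was the galectin whose level differed most between groups, about 40-fold apart in B6;129 mice on the scale of signal + 0.5. Lgals1 was about 2-fold higher in both KO groups. Both were near the WT level in treated KO muscle, while Lgals4, Lgals8 and Lgals9 moved little.

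Lgals3 had signals of 108, 124 and 165 in B6;129 KO quadriceps, against 1.84, 3.14 and 3.14 in B6;129 WT quadriceps. Every KO library was far above every WT library, and the log2 difference was 5.38 ± 0.33, or 41.6-fold. Mixed-background values were 91.5, 55.2 and 84.4 in KO muscle, against 3.87, 4.59 and 9.82 in WT muscle. The groups again lay apart, by 3.63 ± 0.33 (12.4-fold). Treated KO quadriceps had 6.495, 10.6 and 5.09. All 3 lay below the untreated KO libraries (log2 difference -3.32 ± 0.33). Treated mice 21 and 24 lay within the WT range and treated mouse 22 just above it, and the difference from WT was 0.31 ± 0.33. The lowest WT library rested on 25 Lgals3 reads and the highest KO library on 5013. In bulk tissue, a change in the number of cells of a type and a change in RNA per cell cannot be told apart.

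Lgals1 had signals of 470, 561 and 536 in B6;129 KO quadriceps, against 247, 277 and 214 in B6;129 WT quadriceps, which do not overlap (1.09 ± 0.11, 2.12-fold). Mixed-background KO muscle had 564, 479 and 559 and WT muscle 214, 234 and 241 (1.22 ± 0.11, 2.32-fold). Treated KO muscle had 215, 185 and 232. These values were below every untreated KO library (-1.34 ± 0.11) and overlapped the WT values (-0.13 ± 0.11).

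Lgals8, the galectin tied to mTORC1, was level across quadriceps. Its signal averaged 45.9 ± 5.88 in treated KO, 49.0 ± 3.37 in KO and 50.9 ± 2.42 in WT muscle of the mixed background, with 49.6 ± 2.08 in KO and 48.8 ± 8.65 in WT muscle of B6;129. All comparisons of Lgals8 overlapped, and the widest log2 difference was -0.15 ± 0.12, in treated KO over WT muscle. Lgals9 averaged 10.3 ± 1.66, 9.59 ± 1.55 and 8.46 ± 1.88 in treated KO, KO and WT muscle of the mixed background, and 7.15 ± 0.613 and 7.07 ± 0.971 in KO and WT muscle of B6;129. Its groups overlapped in every quadriceps comparison too.

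Lgals4 had signals of 4.82, 4.55 and 4.23 in B6;129 KO quadriceps, against 5.58, 4.93 and 7.27 in B6;129 WT quadriceps. The KO values lay just below the WT values (-0.34 ± 0.18). Treated KO, KO and WT muscle of the mixed background averaged 5.58 ± 0.880, 6.89 ± 1.45 and 6.84 ± 0.966, and these groups overlapped. Of the epithelial marker list, 4 of 8 genes were in the table, and Cdh1 and Vil1 stayed below a signal of 1 in all quadriceps groups. The other 2, Krt8 and Krt18, rose in both KO muscles and fell with treatment. Krt18, a keratin, averaged 3.98 ± 0.557 in B6;129 KO and 0.200 ± 0.152 in B6;129 WT quadriceps, and 0.182 ± 0.211 in treated KO, 3.675 ± 1.51 in KO and 0.175 ± 0.102 in WT quadriceps of the mixed background. Krt8 had lower KO means, of 1.60 ± 0.0952 in B6;129 and 1.42 ± 0.0694 on the mixed background. Their part in the Lgals4 values was not tested.

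Counted over the 5 genes, KO and WT libraries did not overlap for 3 genes in B6;129 quadriceps, where 53.9% of the 14113 genes tested did not overlap either. For the mixed background it was 2 genes, beside 46.4% of all genes. Treated KO and untreated KO quadriceps were apart for 2 genes, beside 49.4% of all genes, and treated KO and WT quadriceps for 0 genes, beside 23.9%. Between the 2 WT groups, mixed over B6;129, 1 gene lay apart, beside 21.9%. That gene was Lgals3, with a log2 difference of 0.96 ± 0.33. Since these contrasts chose the genes, nothing is read from the shares.

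**Figure D1:**
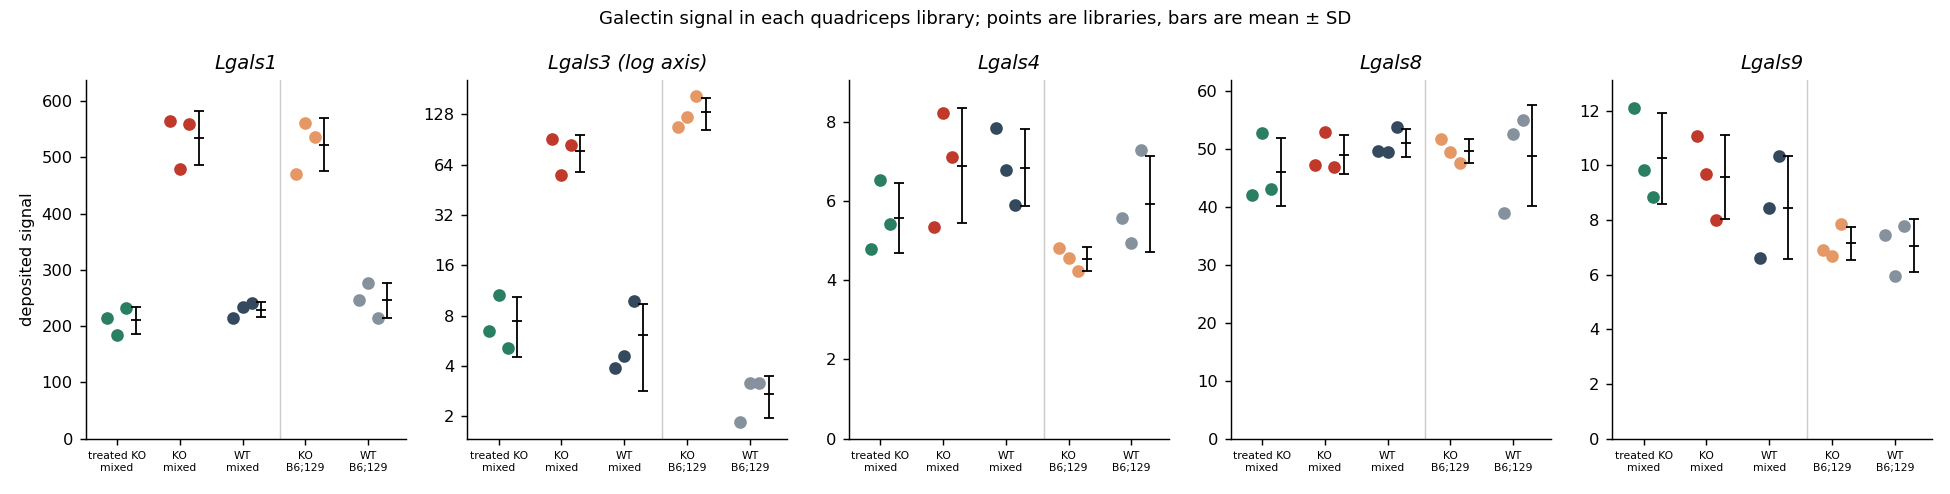
Signal of the 5 galectin genes in each quadriceps library by group, with the mean and SD (n = 3) beside the points. The axis is logarithmic for Lgals3 and starts at 0 for the others. Lgals3 and Lgals1 are high in both untreated KO groups, with Lgals3 between 55.2 and 165 there and at most 10.6 in the other groups.

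Per kilobase of exon, Lgals1 was the most abundant galectin of muscle in all groups. It held 79.7% ± 3.04 of the summed per-kilobase signal of 8 galectin family genes in treated KO muscle, 87.8% ± 0.195 in KO muscle and 80.1% ± 0.780 in WT muscle of the mixed background. Lgals3 held 1.40% ± 0.655, 6.10% ± 1.05 and 1.02% ± 0.507 in the same groups. In B6;129 muscle Lgals3 held 10.3% ± 1.78 in KO and 0.443% ± 0.135 in WT. Lgals8 held a smaller share in KO muscle of both backgrounds, 1.99% ± 0.326 on the mixed one against 4.36% ± 0.181 in WT, at a mean signal of 49.0 and 50.9.

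In spinal cord, Lgals3 again had the widest difference, with KO about 4-fold to 5-fold above WT, from a level near 1 in WT. Unlike in muscle, treated KO cord stayed at the KO level of Lgals3. The other 4 genes differed by less than 1 log2 unit between KO and WT cord of a background.

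Lgals3 had signals of 8.28, 8.04 and 7.17 in B6;129 KO cord, against 0.886, 1.15 and 1.42 in B6;129 WT cord (log2 difference 2.35 ± 0.21, 5.08-fold). Mixed-background KO cord had 8.62, 8.85 and 9.93 and WT cord 2.14, 1.86 and 1.09 (2.16 ± 0.21). Both pairs of groups lay apart. Treated KO cord had 8.40, 5.64 and 10.2. These values overlapped untreated KO cord (-0.20 ± 0.21) and lay above all WT cords (1.96 ± 0.21, 3.89-fold). Cord libraries held 30 to 408 Lgals3 reads.

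Lgals1 was only slightly higher in KO cord. It averaged 25.3 ± 2.54 in B6;129 KO cord and 20.5 ± 0.980 in B6;129 WT cord (0.29 ± 0.09), without overlap. On the mixed background it averaged 62.6 ± 7.04 in treated KO, 64.9 ± 3.93 in KO and 54.3 ± 5.00 in WT cord. The KO values lay above the WT values there (0.26 ± 0.09), and the treated values overlapped both. The difference between backgrounds was larger, with WT cord at 49.9, 59.8 and 53.2 on the mixed background against 21.5, 19.5 and 20.5 on B6;129 (1.38 ± 0.09, 2.61-fold). The summed signal of 8 oligodendrocyte genes moved with it, at 25300 to 34500 in WT mixed cord and 15100 to 16100 in WT B6;129 cord. So did the sums of 8 neuron genes (5940 to 6970 and 4530 to 4820) and 8 astrocyte genes (3880 to 4200 and 3440 to 3770). The sum of 8 endothelial genes moved the other way, at 65.5 to 71.8 and 146 to 163 in these groups. That of 7 red blood cell genes was also lower in WT mixed cord, at 161 to 255 and 517 to 757. Mitochondrial reads were 13.2% to 16.96% of WT mixed and 6.99% to 7.37% of WT B6;129 cord libraries. The part of these in the Lgals1 difference was not tested, and 71.6% of the 15838 genes tested had the 2 WT cord groups apart.

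Lgals8 was slightly lower in KO cord of the mixed background, at 39.98, 39.6 and 38.8 in KO against 45.2, 46.0 and 45.7 in WT (-0.21 ± 0.05). Treated KO cord had 41.0, 44.1 and 41.1, which lay between those groups and overlapped neither. In B6;129 cord Lgals8 averaged 45.3 ± 1.94 in KO and 48.1 ± 2.653 in WT, and these overlapped. Lgals9 had 8.17, 8.28 and 8.64 in mixed KO cord, against 5.99, 7.94 and 5.96 in mixed WT cord (0.33 ± 0.11, and 0.45 without WT mouse 3). Treated KO cord had 7.53, 7.26 and 8.05, below untreated KO cord and overlapping WT cord. The difference from WT cord was 0.20 ± 0.11, and 0.32 without WT mouse 3. In B6;129 cord Lgals9 averaged 6.95 ± 0.244 in KO and 6.37 ± 0.731 in WT, and these overlapped.

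Per kilobase of exon, Lgals4 had the lowest level of the 5 genes in every cord group except B6;129 WT, where Lgals3 was at 0.620 and Lgals4 at 0.972. It had 2.45, 2.54 and 2.45 in mixed KO cord, against 1.94, 1.40 and 0.834 in mixed WT cord (0.70 ± 0.17, and 0.47 without WT mouse 4). Treated KO cord, at 1.94, 2.55 and 2.24, overlapped mixed KO cord and averaged 0.57 ± 0.17 above WT on the log2 scale, or 0.34 without WT mouse 4. In B6;129 cord Lgals4 averaged 2.51 ± 0.0812 in KO and 2.25 ± 0.104 in WT (0.13 ± 0.17), without overlap.

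Over the 5 genes, KO and WT cord did not overlap for 3 genes in B6;129 mice, beside 23.9% of all genes tested, and for 5 genes on the mixed background, beside 29.2%. Treated KO and KO cord were apart for 2 genes, beside 12.3%, and treated KO and WT cord for 2 genes, beside 30.2%. These 2 were Lgals3, higher in treated KO cord, and Lgals8, lower. As in muscle, the genes were chosen with these values known, and nothing is read from the shares.

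**Figure D2:**
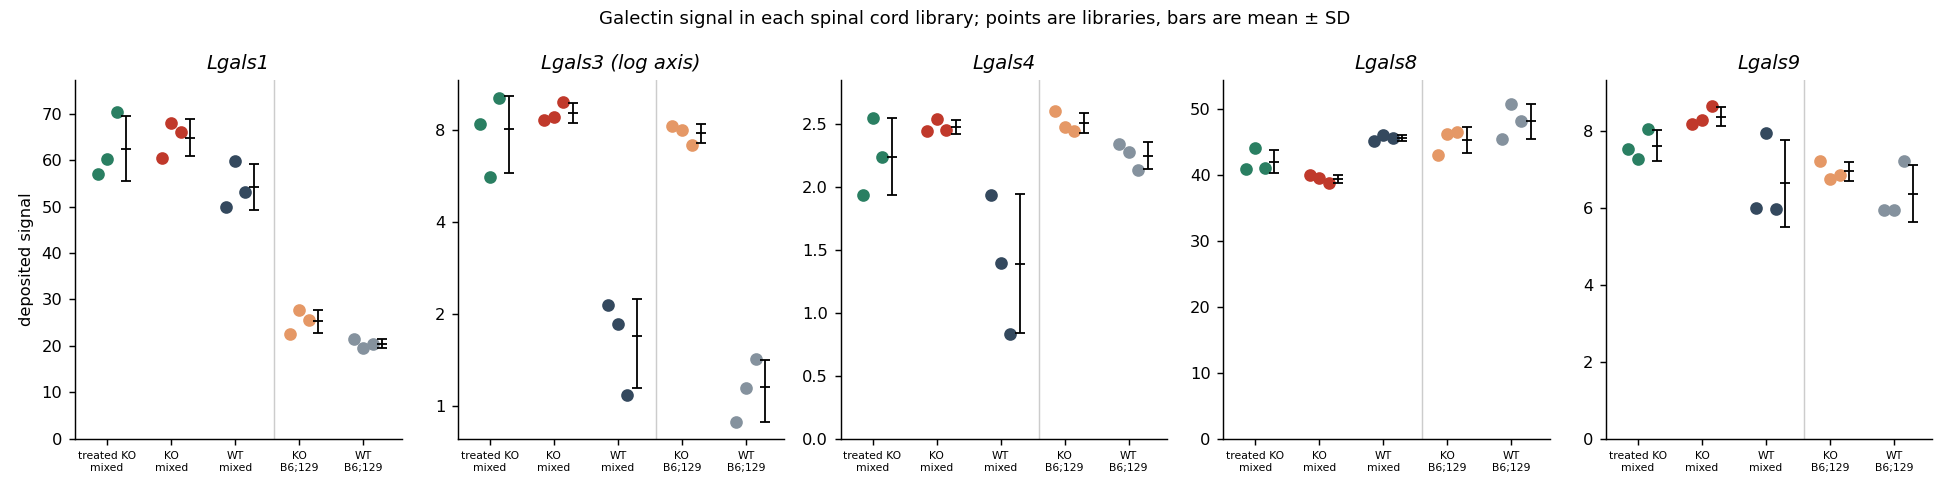
Signal of the 5 galectin genes in each spinal cord library by group, with the mean and SD (n = 3) beside the points. The axis is logarithmic for Lgals3 and starts at 0 for the others. Lgals3 lies between 5.64 and 10.2 in treated and untreated KO cord and at most 2.14 in WT cord, and Lgals1 differs mainly by background.

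Across tissues, the levels of Lgals3 ran from 132 ± 29.3 in B6;129 KO muscle and 77.1 ± 19.2 in mixed KO muscle, which lay apart, down to 1.15 ± 0.268 in B6;129 WT cord. Between them stood 9.13 ± 0.701 in mixed KO cord, 8.07 ± 2.28 in treated KO cord, 7.83 ± 0.585 in B6;129 KO cord, 7.40 ± 2.87 in treated KO muscle and 6.09 ± 3.25 in mixed WT muscle. Neighbours among these 5 differed by less than the larger of their SDs. B6;129 WT muscle followed at 2.71 ± 0.752, below every mixed WT muscle, and then mixed WT cord at 1.70 ± 0.547, within its SD of B6;129 WT cord.

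The log2 KO difference of Lgals3 was larger in quadriceps than in cord, by 3.04 ± 0.42 on B6;129 and 1.47 ± 0.42 on the mixed background. Its treatment difference was lower in quadriceps by 3.12 ± 0.42. For Lgals1 the same 3 values were 0.79, 0.96 and -1.29 (SE 0.15 each). Lgals4 differed by -0.47, -0.70 and -0.15 (SE 0.25 each), and the second of these became -0.47 without cord WT mouse 4. For Lgals8 the 3 values were 0.12, 0.15 and -0.19 (SE 0.13 each), and the first became -0.03 without quadriceps WT mouse 4. For Lgals9 they were -0.10, -0.14 and 0.22 (SE 0.21 each). The KO difference of Lgals3 in quadriceps was lower on the mixed background than on B6;129 by 1.75 ± 0.47, and for Lgals1 the backgrounds differed by 0.13 ± 0.16. In cord the same background values were -0.18 ± 0.29 for Lgals3 and -0.04 ± 0.13 for Lgals1.

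**Figure D3:**
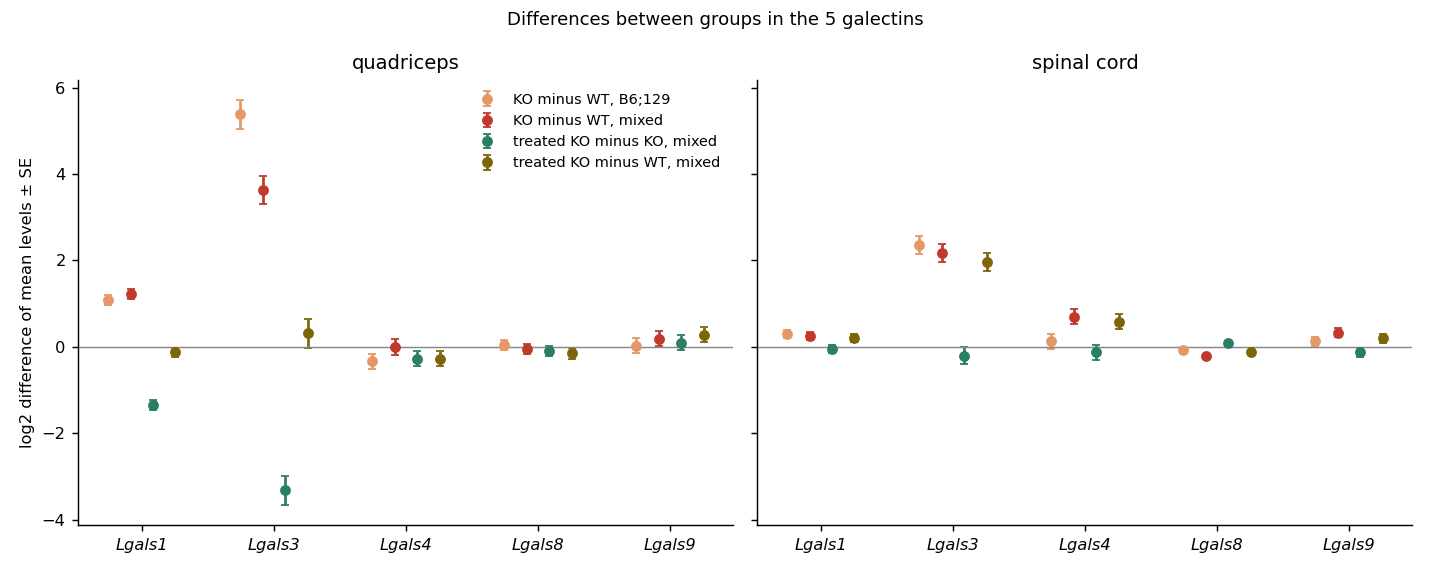
Log2 differences of the 5 galectin genes with their standard errors, by comparison, for quadriceps and spinal cord. Lgals3 stands farthest from 0 in both tissues, and its treated KO over KO value is -3.32 in quadriceps and -0.20 in cord.

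Over the 15 quadriceps libraries, Lgals1 and Lgals3 had a Pearson r of 0.914 on log2 values, and every other pair of the 5 genes lay between -0.298 and 0.328. In cord, Lgals3 had r of 0.721 with Lgals9 and -0.736 with Lgals8. These libraries share their groups, so the r values describe the group pattern.

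Markers of macrophages, which make much galectin-3, moved with Lgals3 in muscle. Of 14 macrophage genes, 13 rose in B6;129 KO quadriceps, 12 rose in mixed KO quadriceps and 11 fell in treated KO over KO quadriceps. The shares of all genes called in these directions were 16.7%, 17.1% and 17.1%. Their summed signal was 103 to 249 in treated KO, 320 to 635 in KO and 142 to 196 in WT muscle of the mixed background, with 383 to 500 in KO and 80.5 to 111 in WT muscle of B6;129. Of the 14, Aif1 stayed below 1 in treated KO and both WT muscles and none was at 0 throughout. Lgals3 stood above the mean of the list by 2.82 ± 0.258 in B6;129 KO muscle and at -0.55 ± 0.242 from it in B6;129 WT muscle (log2 scale). The same distance on the mixed background was 0.06 ± 0.966 in treated KO, 1.99 ± 0.616 in KO and -0.29 ± 0.487 in WT muscle. The log2 KO difference was 5.38 for Lgals3 beside a median of 2.09 over the list in B6;129, and 3.63 beside 1.22 on the mixed background. The part of macrophages in the Lgals3 level was not tested.

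Markers of regenerating fibres also moved with it. Of 8 genes of new muscle, 8 rose in B6;129 KO and 7 in mixed KO quadriceps, beside 16.7% and 17.1% of all genes. In treated KO over KO quadriceps 7 fell, beside 17.1%. The summed signal of the 8 was 68.3 to 70.0 in treated KO, 223 to 251 in KO and 59.5 to 79.5 in WT muscle of the mixed background. It was 269 to 358 in KO and 69.1 to 90.2 in WT muscle of B6;129. Mymk, Mymx and Chrng were below 1 in treated KO and WT muscle. Of 8 fibroblast genes, 5 and 4 rose in KO quadriceps of B6;129 and the mixed background, beside 16.7% and 17.1% of all genes. Only 1 of these 8 fell in treated KO over KO quadriceps, beside 17.1%. Of 8 endothelial genes, 6 and 4 fell in the 2 KO muscles, beside 19% and 22.3%. With treatment 5 of them rose, beside 23.6%. None of these was tested for its part in the galectin levels.

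In cord, 9 of the 14 macrophage genes rose in B6;129 KO, 10 in mixed KO and 8 in treated KO over WT cord. Of all genes, 0.998%, 7.16% and 8.81% rose in these comparisons. In treated KO over KO cord limma called 0 of the 14, edgeR called 0 and 8 had an unadjusted p under 0.05. The summed signal was 278 to 435 in treated KO, 438 to 484 in KO and 197 to 224 in WT cord of the mixed background, and 423 to 441 in KO and 188 to 196 in WT cord of B6;129. Lgals3 lay below the list mean in all cords, at a log2 distance of -0.73 ± 0.202 in mixed KO and -2.01 ± 0.473 in mixed WT cord. Astrocyte genes, 8 in number, summed to 5740 to 6870 in treated KO, 5810 to 6120 in KO and 3880 to 4200 in WT cord of the mixed background. Such a sum is weighted to the most abundant genes. Of the 8, 2 rose in mixed KO over WT cord (list median 0.088 on the log2 scale), beside 7.16% of all genes. In treated KO over WT cord 4 rose (median 0.196), beside 8.81%.

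**Figure D4:**
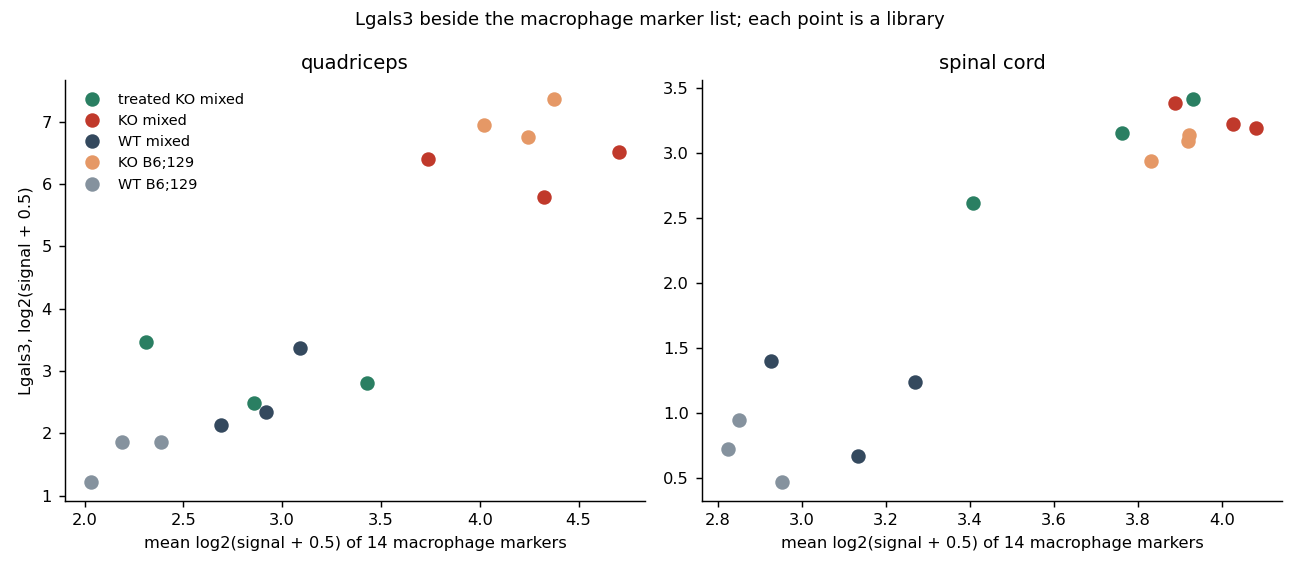
Lgals3 level against the mean of 14 macrophage marker genes, both as log2(signal + 0.5), 1 point per library, for quadriceps and spinal cord. In quadriceps the untreated KO libraries stand 1.99 ± 0.616 (mixed) and 2.82 ± 0.258 (B6;129) above the list mean, and in cord every group lies below it on average.

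Among 14113 genes, those whose log2 pattern over the quadriceps libraries was most like Lgals3 were Plp2 (r 0.988), 1810058I24Rik (0.988), Hexa (0.984), C77080 (0.984), Slc4a3 (0.982), Fam129b (0.979), Tspan5 (0.979), Rnh1 (0.978), Ndrg4 (0.977) and Myh3 (0.976). Hexa encodes a subunit of lysosomal hexosaminidase, and Myh3 the embryonic myosin heavy chain. Hexa averaged 65.4 ± 1.97 in treated KO, 157 ± 13.3 in KO and 61.4 ± 13.1 in WT muscle of the mixed background. Myh3 averaged 4.44 ± 1.58, 37.3 ± 4.09 and 4.28 ± 0.549 in these groups. For Lgals1 the nearest genes were Pcbd1, Mpp1 and S100a4, each with r of 0.986, and S100a4 averaged 4.34 ± 1.33, 116 ± 28.3 and 7.48 ± 1.24.

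Among the genes nearest to Lgals3 in cord were Ctss (r 0.957), Fcer1g (0.956), Laptm5 (0.952), C1qa (0.951), Tnfrsf1a (0.949), Vav1 (0.948), Vim (0.944), Gfap (0.941) and Cd86 (0.94). Ctss, a lysosomal protease, and C1qa, a complement subunit, belong to the macrophage list used here, and Gfap is the astrocyte filament. No gene is named for both tissues. Nearest to Lgals1 in cord were Fxyd7 (0.993), Dazap2 (0.992) and Sh3bgrl3 (0.992).

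Weaker likeness was found for the 3 other genes. In quadriceps Lgals9 was nearest to Anxa3 (0.855), Oas1a (0.849) and Oas2 (0.848), of which Oas1a and Oas2 are interferon-induced. Lgals4 was nearest to Gm15337 (0.821), Etfb (0.817) and Actr10 (0.801), and Lgals8 to Kif7 (0.761), N4bp2l2 (0.76) and Tango2 (0.758). In cord Lgals9 was nearest to Gm14165 (0.899), Fam53a (0.886) and Gm27194 (0.885), Lgals4 to Tulp4 (0.914), Sft2d2 (0.904) and Afap1l1 (0.904), and Lgals8 to Kirrel3 (0.898), Zcchc3 (0.893) and Gm42732 (0.891).

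Other family members were read from a list of 6 genes, of which Lgals2, Lgals12 and Lgalsl were in the table. Lgalsl, a galectin-like gene without known sugar binding, was lower in KO muscle, where Lgals1 and Lgals3 were higher. It had signals of 131, 143 and 144 in treated KO, 63.0, 87.3 and 74.6 in KO and 161, 167 and 144 in WT quadriceps of the mixed background. It was lower in KO over WT quadriceps (log2 difference -1.07 ± 0.10, limma adjusted p = 4.74e-06) and higher in treated KO over KO quadriceps (0.90 ± 0.10, adjusted p = 1.34e-05). In B6;129 quadriceps it averaged 69.9 ± 4.83 in KO and 151 ± 4.98 in WT (-1.11 ± 0.10, adjusted p = 3.71e-06). In cord it fell slightly in mixed KO (-0.22 ± 0.07, adjusted p = 0.0397). This call was lost without KO mouse 6 (-0.22), KO mouse 7 (-0.18) or WT mouse 4 (-0.15). Lgals12, known from fat cells, averaged 5.07 ± 0.315 in KO and 2.15 ± 1.09 in WT quadriceps of the mixed background (1.14 ± 0.42, adjusted p = 0.0446). That call was lost without any of KO mice 6, 7 and 8 or WT mice 1 and 4, at log2 differences of 0.96 to 1.19, and under edgeR (adjusted p = 0.0661). In B6;129 quadriceps Lgals12 averaged 4.07 ± 2.40 in KO and 4.53 ± 2.91 in WT (-0.10 ± 0.42, adjusted p = 0.876), and the difference between the 2 KO effects did not pass the test (1.25 ± 0.59, adjusted p = 0.472). Lgals2 stayed under a mean signal of 1 in every group.

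Partners of the galectins were read from 9 lists of 122 genes, 118 of them in the table, covering galectin ligands and each step of the lysosomal damage response. In B6;129 KO quadriceps 38 of 114 tested genes rose and 15 fell, while 16.7% of all genes rose and 19% fell. In mixed KO quadriceps 42 rose and 22 fell, beside 17.1% and 22.3% of all genes. In treated KO over KO quadriceps 26 rose and 36 fell, beside 23.6% and 17.1%. In treated KO over WT quadriceps 5 rose, beside 1.93% that rose and 1.05% that fell of all genes. That count was 1 without treated mouse 24, 2 without treated mouse 22, and 3 without treated mouse 21, WT mouse 1 or WT mouse 3. With library medians made equal, 49.7% of all calls in that comparison were upward, against 64.8% here. The 3 mixed-background comparisons share their samples.

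Of 12 tested ligands and receptors, 8 rose (66.7%) and 1 fell (8.33%) in B6;129 KO muscle, beside 16.7% and 19% of all genes. In mixed KO muscle 7 rose (58.3%) and 1 fell (8.33%), beside 17.1% and 22.3%. The list median was 0.60 and 0.46 on the log2 scale, against -0.025 and -0.035 over all genes. Lamp1, the main sugar-coated protein of the lysosomal membrane, averaged 889 ± 23.0 in B6;129 KO and 568 ± 21.2 in B6;129 WT quadriceps (0.65 ± 0.06, limma adjusted p = 2.25e-06). In mixed quadriceps it averaged 543 ± 9.45 in treated KO, 863 ± 40.6 in KO and 600 ± 2.23 in WT, and treated KO was lower than KO (log2 difference -0.67 ± 0.06, adjusted p = 1.41e-06). Cd44, a cell-surface glycoprotein, averaged 5.48 ± 1.26 in treated KO, 23.9 ± 3.20 in KO and 8.98 ± 2.61 in WT quadriceps of the mixed background (treated KO over KO -2.04 ± 0.22, adjusted p = 9.92e-06). Lamp2, Trem2 and Ptprc also rose in both KO muscles and fell with treatment. Mertk, a receptor for engulfing dead cells, was higher in treated KO than in KO quadriceps (0.78 ± 0.19, adjusted p = 0.0057) and than in WT quadriceps (0.86 ± 0.19, adjusted p = 0.033). The second call was lost without treated mouse 22 or 24 or WT mouse 1 or 3, at log2 differences of 0.81, 0.70, 0.75 and 0.89.

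Lgals3bp, which encodes a secreted galectin-3 binding glycoprotein, overlapped between treated KO (15.4 to 20.6) and KO (16.9 to 18.5) quadriceps of the mixed background. It averaged 18.6 ± 2.76 in treated KO, 17.5 ± 0.852 in KO and 11.9 ± 0.858 in WT quadriceps of the mixed background. Both KO over WT (0.54 ± 0.12, limma adjusted p = 0.00373) and treated KO over WT (0.61 ± 0.12, adjusted p = 0.021) passed the test. The second did not without treated mouse 21 (0.53), treated mouse 24 (0.57) or WT mouse 1 (0.58). In B6;129 quadriceps the difference was 0.13 ± 0.12 (adjusted p = 0.451). In cord it averaged 10.5 ± 2.52 in treated KO, 14.8 ± 2.88 in KO and 7.15 ± 0.925 in WT of the mixed background (KO over WT 0.99 ± 0.16, adjusted p = 0.00189). Lgals3bp lies 0.866 Mb from Gaa on chromosome 11, so the knockout and DNA carried along with it cannot be told apart for this gene.

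Of 12 enzymes of glycan branching and capping, 2 rose (16.7%, as in 16.7% of all genes) and 1 fell in B6;129 KO quadriceps. In mixed KO 3 rose (25%, beside 17.1%) and 1 fell, and in treated KO over KO quadriceps 1 rose and 3 fell (25%, beside 17.1%). Mgat4b, which adds branches to N-glycans, averaged 162 ± 2.31 in B6;129 KO and 51.0 ± 3.45 in B6;129 WT quadriceps (1.66 ± 0.15, limma adjusted p = 3.4e-06). It also rose in mixed KO (0.89 ± 0.15) and fell with treatment (-1.04 ± 0.15, adjusted p = 0.000106). C1galt1, which starts the core of O-glycans, went the other way, with mixed KO below WT (log2 difference -0.77 ± 0.09, adjusted p = 2.53e-05) and treated KO above KO by 0.64 ± 0.09.

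ESCRT genes, whose products patch small lysosomal holes, rose in 8 of 16 cases in B6;129 KO quadriceps (50%, beside 16.7% of all genes). In mixed KO quadriceps 10 of 16 rose (62.5%, beside 17.1%). With treatment 7 fell (43.8%, beside 17.1%) and 1, Vps4a, rose (6.25%, beside 23.6%). The changes were small, with list medians of 0.16, 0.24 and -0.18. Pdcd6ip, the Alix gene and a partner of galectin-3 in repair, rose by 0.41 ± 0.07 (limma adjusted p = 0.000399) and 0.34 ± 0.07 (adjusted p = 0.00135) in B6;129 and mixed KO. Chmp2b, an ESCRT subunit, fell by 0.57 on the log2 scale with treatment (adjusted p = 9.72e-06).

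Of 18 autophagy genes, 4 rose (22.2%) and 3 fell (16.7%) in B6;129 KO quadriceps, near the 16.7% and 19% of all genes. In mixed KO 7 rose (38.9%) and 4 fell (22.2%), beside 17.1% and 22.3%, and in treated KO over KO quadriceps 5 rose and 5 fell (27.8% each), beside 23.6% and 17.1%. Sqstm1, the p62 receptor, averaged 725 ± 39.5 in treated KO, 1090 ± 25.9 in KO and 691 ± 187 in WT quadriceps of the mixed background (KO over WT 0.69 ± 0.14, limma adjusted p = 0.00159). Gabarap, an LC3 relative on autophagosomes, rose by 0.65 ± 0.06 and 0.54 ± 0.06 in B6;129 and mixed KO. Ulk1, the kinase that starts autophagy, was lower, at log2 differences of -0.78 ± 0.16 and -1.16 ± 0.16, and treated KO was above KO by 1.15 ± 0.16. Optn, another receptor, was lower, at -0.66 ± 0.13 and -0.84 ± 0.13.

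Of 11 tested lysophagy genes for ubiquitin and chaperones, 2 rose (18.2%) in each KO muscle, near the 16.7% and 17.1% of all genes. Ube2ql1, the ubiquitin-conjugating enzyme of damaged lysosomes, rose by 1.01 ± 0.27 (limma adjusted p = 0.0106) in B6;129 and 1.23 ± 0.27 (adjusted p = 0.00286) in mixed KO quadriceps. It fell by 1.56 on the log2 scale in treated KO over KO (adjusted p = 0.000449). In mixed KO cord it was lower (-0.33 ± 0.06, adjusted p = 0.00418).

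Lipid repair genes were led by annexins, which bind damaged membranes. Anxa2 rose by 2.11 ± 0.18 (limma adjusted p = 2.08e-06) in B6;129 and 1.84 ± 0.18 in mixed KO quadriceps, and treated KO was below KO (log2 difference -2.13 ± 0.18). Anxa1 did likewise, at 2.12 ± 0.20, 1.37 ± 0.20 and -1.62 ± 0.20. Of the 16 genes of the list, 6 rose (37.5%) and 3 fell (18.8%) in B6;129 KO, beside 16.7% and 19% of all genes. In mixed KO 4 rose (25%) and 6 fell (37.5%), beside 17.1% and 22.3%. With treatment 7 rose (43.8%) and 4 fell (25%), beside 23.6% and 17.1%. Atg2a and Osbp were higher in treated KO than in WT quadriceps (0.51 ± 0.09, adjusted p = 0.013, and 0.35 ± 0.07, adjusted p = 0.0252). The Osbp call was lost without treated mouse 21, 22 or 24 or WT mouse 4, at 0.32, 0.36, 0.36 and 0.28.

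The catalytic subunits of AMPK, the kinase on which galectin-9 acts, changed in opposite ways. Prkaa1, one of them, rose by 0.73 ± 0.12 and 0.90 ± 0.12 in B6;129 and mixed KO quadriceps. Prkaa2, the subunit typical of muscle fibres, was lower, at log2 differences of -0.86 ± 0.08 (limma adjusted p = 2.89e-06) and -0.86 ± 0.08. In treated KO over KO quadriceps the differences were -0.97 ± 0.12 for Prkaa1 and 0.81 ± 0.08 for Prkaa2. Of the 22 mTORC1, AMPK and TFEB genes, 5 rose (22.7%) and 6 fell (27.3%) in B6;129 KO, beside 16.7% and 19% of all genes. In mixed KO 6 rose (27.3%) and 9 fell (40.9%), beside 17.1% and 22.3%. With treatment 9 rose (40.9%) and 7 fell (31.8%), beside 23.6% and 17.1%. The inflammasome list has 7 genes, Ctsb of a lysosomal protease among them, and 5 were tested. Of the 5, 3 rose in B6;129 KO (60%, beside 16.7% of all genes) and 2 rose in mixed KO (40%, beside 17.1%). With treatment 2 fell (40%, beside 17.1%). Pycard, the adaptor, rose by 1.53 ± 0.20 and 1.72 ± 0.20 and was lower with treatment (log2 difference -1.73 ± 0.20, adjusted p = 1.77e-05).

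Fewer partner genes were called between KO and WT cord. Of 115 tested genes, 6 rose in B6;129 KO, while 0.998% of all genes rose and 0.158% fell. In mixed KO cord 18 rose and 8 fell, beside 7.16% and 5.85% of all genes. The count of 26 was 13 without WT mouse 4 and 17 without KO mouse 6 or WT mouse 1. In treated KO over WT cord 16 rose and 6 fell, beside 8.81% and 7.95%, and this count of 22 was 14 without WT mouse 1. With medians made equal, 41.2% of all calls there were upward, against 52.6% here. In treated KO over KO cord limma called 0 of the list genes, edgeR called 0, and 18 had an unadjusted p under 0.05, where 0% of all genes rose and 0% fell. That count was 1 without treated mouse 24. Between backgrounds, 48 list genes were higher and 40 lower in WT mixed over WT B6;129 cord, beside 32.3% and 34.5% of all genes. In WT mixed over WT B6;129 quadriceps limma called 1 list gene, which was higher, beside 1.39% higher and 1.18% lower of all genes.

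**Figure D5:**
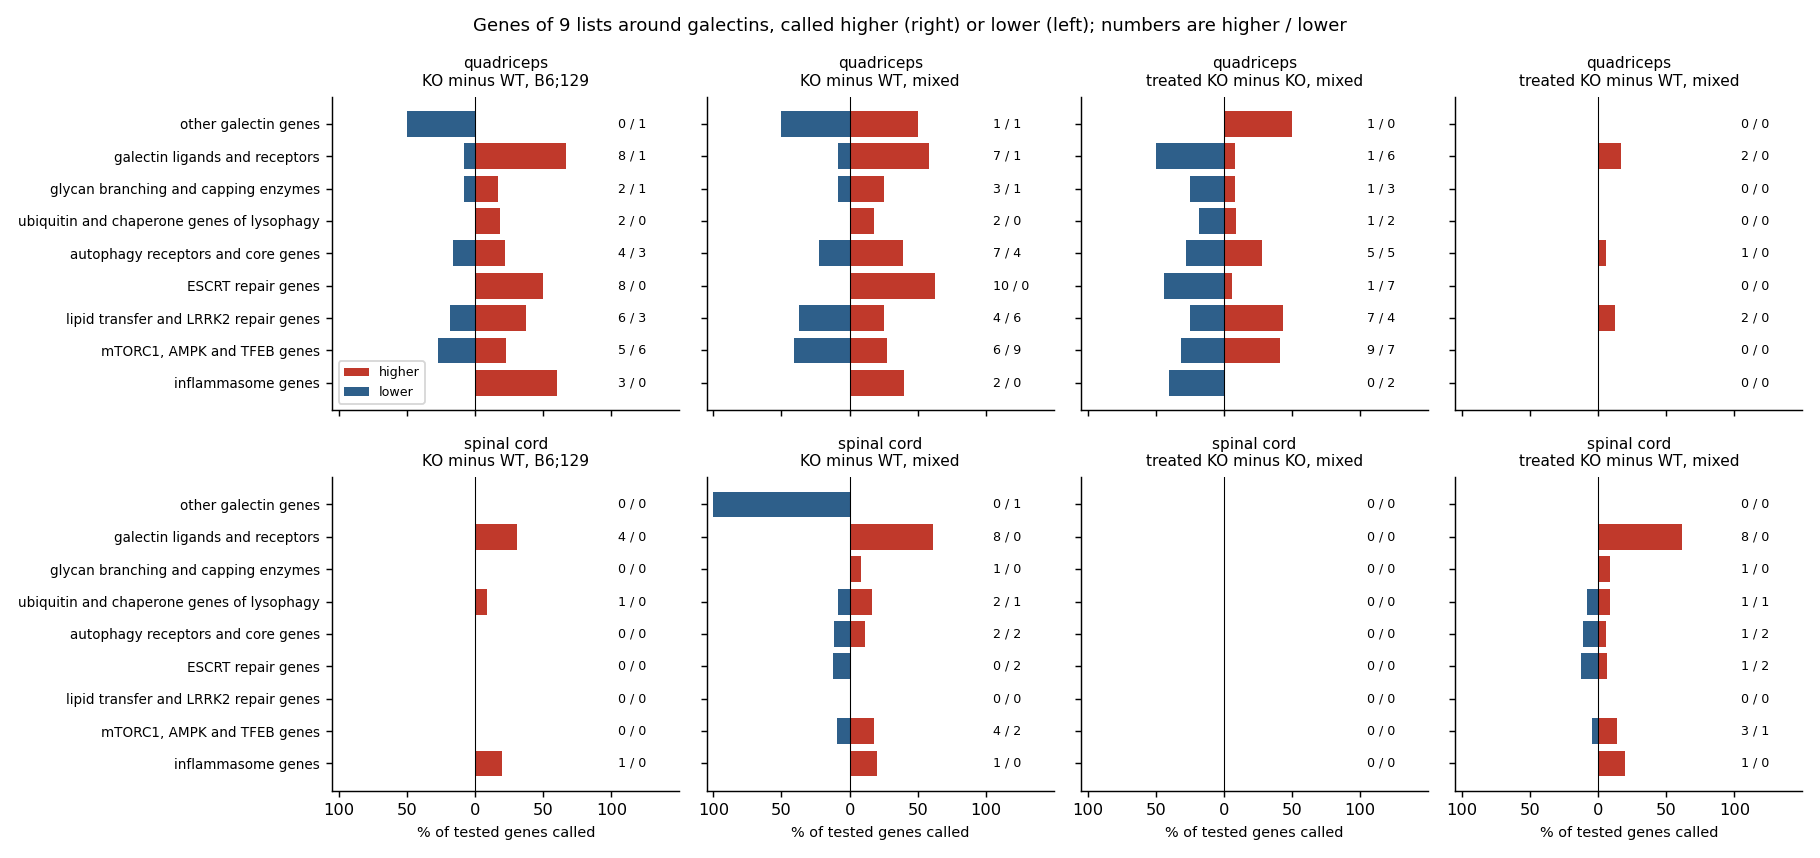
Percent of the tested genes of each partner list that rose or fell past the limma threshold, by comparison, with the numbers of genes beside the bars. In KO over WT quadriceps the ESCRT, lysophagy and inflammasome lists hold only upward calls. The autophagy, lipid repair and mTORC1 lists hold calls in both directions there and again with treatment. In mixed KO over WT cord the ligands and receptors hold more calls than any other list, with 8 of 13.

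Of 13 ligands and receptors, 4 rose in B6;129 KO cord, 8 in mixed KO cord and 8 in treated KO over WT cord, more than in any other partner list. These were 30.8%, 61.5% and 61.5% of the list, beside 0.998%, 7.16% and 8.81% of all genes. Trem2, the lipid receptor of microglia and a galectin-3 ligand, averaged 17.3 ± 0.404 in B6;129 KO and 5.19 ± 0.394 in B6;129 WT cord (1.65 ± 0.14, limma adjusted p = 1.61e-05). On the mixed background it averaged 11.8 ± 3.14 in treated KO, 17.8 ± 1.76 in KO and 7.17 ± 0.617 in WT cord. KO exceeded WT by 1.25 ± 0.14 (adjusted p = 0.000137), and the treated KO over KO difference was -0.60 ± 0.14 (adjusted p = 0.136). Havcr2, a galectin-9 receptor also called TIM-3, averaged 4.04 ± 0.640 in treated KO, 5.37 ± 0.523 in KO and 1.53 ± 0.395 in WT cord of the mixed background (KO over WT 1.55 ± 0.16, adjusted p = 4.95e-05). Lamp2 rose in all 3, by 0.35 ± 0.05, 0.38 ± 0.05 and 0.39 ± 0.05. Trem2 and Havcr2 are expressed by microglia, which share the macrophage list, with summed signals of 278 to 435 in treated KO, 438 to 484 in KO and 197 to 224 in WT cord of the mixed background. The part of these cells was not tested.

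Outside the receptors, Hspb1, a small heat-shock protein, averaged 53.4 ± 4.35 in treated KO, 57.2 ± 5.17 in KO and 34.2 ± 2.04 in WT cord of the mixed background (KO over WT 0.73 ± 0.07, limma adjusted p = 5.12e-05). In B6;129 it rose by 0.56 ± 0.07 (adjusted p = 0.00102). Ctsb, a lysosomal protease, rose by 0.34 ± 0.05 and 0.32 ± 0.05 in B6;129 and mixed KO cord. Flcn and Fnip2, partners in the control of TFEB, rose in mixed KO cord by 0.43 ± 0.07 (adjusted p = 0.00192) and 0.62 ± 0.11 (adjusted p = 0.00352). Of the 22 mTORC1, AMPK and TFEB genes, 4 rose (18.2%) and 2 fell (9.09%) there, beside 7.16% and 5.85% of all genes. In B6;129 KO cord 0 of the 22 were called, beside 0.998% and 0.158%. Of 18 autophagy genes 2 rose and 2 fell (11.1% each) in mixed KO cord. Of 16 ESCRT genes 0 rose and 2 fell (12.5%) there.

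The difference between tissues was tested for the partners in a joint fit of all 30 libraries, which did not use the pairing of tissues by mouse. Of 113 genes, the KO difference was higher in quadriceps for 30 and lower for 13 in B6;129, beside 12.2% and 13.1% of 13187 genes. For the mixed background it was higher for 30 and lower for 20, beside 13.6% and 18.7%. The treatment difference was higher in quadriceps for 21 and lower for 32, beside 19.6% and 14%. Between backgrounds, the KO difference in quadriceps was called for 1 list gene, Osbpl10, where 0.0992% of all genes were higher and 0.184% lower on the mixed background. That count was 0 under edgeR, with 8 genes at an unadjusted p under 0.05. It was also 0 without KO mouse 6 or 7 or WT mouse 4 of the mixed background, or KO mouse 2 or 3 or WT mouse 4 or 6 of B6;129, and 3 without mixed KO mouse 8. In cord limma and edgeR called 0 list genes for the same difference, 13 had an unadjusted p under 0.05, and 0.417% of all genes were higher and 0.107% lower.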

How the data were processed

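Poly(A) RNA of snap-frozen quadriceps and spinal cord was sequenced single-end on a HiSeq2500, per the labels' protocols. The submitters' processing notes name cutadapt, RSEM, edgeR, limma and GRCm38, without versions. The authors deposited 1 table of signal values for 30 libraries, which are (reads + 0.5) divided by a scaled library size (a CPM scale). Whole reads came back for 100.0% of values within 0.001. Treated cord columns were joined to mice by the animal number in the title, and 0 value columns were left unmapped.

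The members and lists were chosen with earlier results of these data known. A signal of 1 or more was required in 3 libraries of the tissue, which left 14113 quadriceps genes, 15838 cord genes and 13187 shared by the 2 tissues. The log2(signal + 0.5) values were fitted with limma 3.58.1 (R 4.3.3), all 5 groups of a tissue together, with Benjamini-Hochberg adjustment over all genes and a threshold of 0.05. Alternatives were a pseudocount of 2, no filter, a filter at 4, quantile and median scaling, edgeR 4.0.16 on the recovered reads (the main test stayed limma because the deposited values are normalized), fits of 2 groups, each library left out, and the animal as replicate block. Scripts were checked on simulated data. Lengths are exon unions of GENCODE vM21, with 99.9% of gene IDs matched. Named partners were up to 4 called genes per list and comparison with the smallest adjusted p, plus the 5 genes, Gaa, the other galectins and the nearest genes by Pearson r. A nearest gene in cord is not reported here. Replicates are separate mice. Labels tie both tissues to 1 mouse, and quadriceps and cord of a mouse deviated together most in 15 of 15 mice (r 0.109 to 0.354). Figures were drawn with matplotlib 3.10.9, and the promoter scan used Python 3.11.15.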

Additional observations from a re-analysis of the deposited data

Results flagged for a closer look

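These genes passed a limma test of the difference between 2 effects (Benjamini-Hochberg adjusted over all genes), and are the ones with the smallest adjusted p of each partner list. All values are log2 differences of differences. Between backgrounds, the KO difference of Osbpl10, an oxysterol-binding relative, was lower on the mixed background than on B6;129 in quadriceps, at -1.698 (adjusted p = 0.0346), and it was not called by edgeR.

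Between tissues, the B6;129 KO difference was higher in quadriceps than in cord for Lamp1 (0.452), Mgat4b (1.67), Ubxn6 (0.333), Gabarap (0.507), Pdcd6ip (0.414), Anxa2 (1.738) and Pycard (1.167). It was lower in quadriceps for Lgalsl (-0.979) and Prkaa2 (-0.807).

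On the mixed background the KO difference was higher in quadriceps for Lamp1 (0.355), Ube2ql1 (1.561), Tsg101 (0.415), Prkaa1 (1.034) and Pycard (1.372). It was lower there for Lgalsl (-0.849), C1galt1 (-0.799), Optn (-1.142) and Rab10 (-0.635).

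The treated KO over KO difference was higher in quadriceps than in cord for Lgalsl (0.827). It was lower in quadriceps for Lamp1 (-0.834), Mgat4b (-1.112), Ube2ql1 (-1.481), Gabarap (-0.613), Chmp2b (-0.628), Anxa2 (-2.235), Prkaa1 (-1.006) and Pycard (-1.788).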

How the results depend on the processing

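Of 798 recomputed galectin differences, 779 stayed within the spread between mice, and none of 1789 recomputed partner results changed direction, while 152 lost their call. Of the 779, 55 without the filter, 48 with the filter at 4, 40 in 2-group fits and 15 with the animal block could not move. These settings leave group means as they are, so filters and 2-group fits cannot reverse a partner result either. Another 414 left out 1 of 3 mice, which shifts a group mean by only part of its SD. The 779 is therefore a weak check. With a pseudocount of 2, Lgals3 became 4.826 in B6;129 quadriceps and, in cord, 1.643 (B6;129 KO), 1.6 (mixed KO) and 1.431 (treated KO over WT), since a larger constant shrinks low values. Lgals4 became 0.414 (mixed KO) and 0.334 (treated KO over WT) in cord and -0.413 between tissues. Under edgeR, Lgals3 became 2.758 and 2.254 in cord (B6;129 KO, treated KO over WT), and the count for the quadriceps background difference became 0. Under quantile scaling Lgals1 became 1.247 and 1.376 in KO quadriceps and 0.95 and 1.114 between tissues. The cause of the edgeR and quantile shifts was not tested. Fits of 2 groups, with fewer samples, called 0 genes in treated KO over WT quadriceps, 10 in mixed KO cord and 5 in treated KO over WT cord. Between WT quadriceps, 1 list gene was called, and 2 under quantile scaling, median scaling and the 2-group fit, and 1 to 4 with a library left out.

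Leaving out 1 library gave 1 to 4 calls in treated KO over WT quadriceps, 13 to 23 in mixed KO cord, 14 to 23 in treated KO over WT cord, 0 to 1 in treated KO over KO cord and 0 to 3 for the quadriceps background difference. The galectin ranges were 0.468 to 0.904 (Lgals4) and 0.259 to 0.452 (Lgals9) in mixed KO cord, 0.344 to 0.78 (Lgals4) and 0.131 to 0.323 (Lgals9) in treated KO over WT cord, and between tissues -0.905 to -0.469 (Lgals4, mixed) and -0.031 to 0.216 (Lgals8, B6;129).

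With the animal as replicate block, 46 list genes were called between tissues in B6;129, 51 on the mixed background and 56 for treatment, against 43, 50 and 53 without it. The block cannot change the 15 galectin differences themselves, because every mouse gave both tissues, and no single partner gene was refitted. A filter at a signal of 4 removed Lgals4 from cord and from the comparisons between tissues. No scaling moved the median of all genes by more than 0.046. Depth limits Lgals3 in WT libraries, with as few as 25 reads.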
